A study of Mus musculus with 13 samples.

Results

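The 8 globin genes examined here were the alpha-type genes Hba-x, Hba-a1 and Hba-a2 and the beta-type genes Hbb-y, Hbb-bh1, Hbb-bh0, Hbb-b1 and Hbb-b2. They were taken by gene symbol from the deposited expression table of mouse limb buds, which listed all 8 among its 12880 genes. The table covered 13 libraries of embryonic limb buds in 4 groups, from a study of the cartilage transcription factor Sox9. At E11.5 (embryonic days are written E here), 3 controls of genotype Sox9fl/- were compared with 4 Sox9-/- mutants, labelled Sox9null. At E12.5, 3 Sox9fl/fl controls were compared with 3 Sox9fl/flPrx1CreER mutants, labelled Sox9cKO. The Prx1CreER driver is a tamoxifen-dependent Cre recombinase expressed in limb mesenchyme. According to the table header each library came from the limb buds of a separate embryo. Controls of the 2 ages carried different Sox9 alleles, so an age difference and a difference between crosses cannot be told apart. The mutants of the 2 ages also differed in genotype, so their age differences cannot be told apart from the kind of mutant. This limit also holds for tests over both classes and for the difference of the 2 mutant effects. Values are normalized RPKM, the authors' reads per gene scaled to gene length and to the size of the library.

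Haemoglobin is a tetramer of alpha-type and beta-type chains, and mammals use different genes for each chain as development proceeds. In the mouse embryo the first red cells arise in the yolk sac, circulate as nucleated primitive erythrocytes and carry the embryonic chains zeta (Hba-x), epsilon-y (Hbb-y) and beta-h1 (Hbb-bh1). Red cells of the fetal liver follow with the adult chains from Hba-a1, Hba-a2, Hbb-b1 and Hbb-b2. Primitive red cells also change their globins as they mature, from Hbb-bh1 towards Hbb-y and from Hba-x towards the adult alpha genes. Limb buds do not make red cells, and their globin RNA is carried by the blood in their vessels. Hbb-bh0 is a pseudogene of the beta cluster.

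The genes lie in 2 clusters, given here on GRCm38 (the assembly of mm10) with GENCODE M21. On the plus strand of chromosome 11, the zeta gene Hba-x (ENSMUSG00000055609, chr11:32276400-32278116) is followed by Hba-a1 (ENSMUSG00000069919, chr11:32283511-32284465) and Hba-a2 (ENSMUSG00000069917, chr11:32296489-32297298). On the minus strand of chromosome 7, Hbb-y (ENSMUSG00000052187, chr7:103851749-103853216) comes first in the direction of transcription. Next are Hbb-bh0 (ENSMUSG00000085700, chr7:103850020-103850148) and Hbb-bh1 (ENSMUSG00000052217, chr7:103841637-103843164). The adult genes Hbb-b1 (ENSMUSG00000052305, chr7:103826534-103828096) and Hbb-b2 (ENSMUSG00000073940, chr7:103812524-103813996) follow. By identifier, the annotation calls Hbb-b1 Hbb-bs and Hbb-b2 Hbb-bt, the names of the adult copies in the haplotype of the reference strain. Annotated exons summed to 938 bases for Hba-x and to only 129 bases for Hbb-bh0, whose RPKM therefore rests on a short stretch of RNA.

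How far each value belongs to its own gene depends on how much sequence the copies share. In the reference sequence, the coding sequences of Hba-a1 and Hba-a2 differed at 1 of 429 bases, and those of Hbb-b1 and Hbb-b2 at 1 of 444. Whether the embryos carried the haplotype of the reference strain was not tested. The embryonic genes were distinct: Hbb-bh1 and Hbb-y were 76.4% identical, Hba-x and Hba-a1 62.0%, and adult and embryonic beta genes 73.9% to 74.3%. The following 60-base stretches of coding sequence, written 5′ to 3′ from the GENCODE M21 transcripts on GRCm38, show the contrast. Capitals mark the bases that differ within a pair. Coding bases 322 to 381 are shown for the adult alpha pair, 358 to 417 for the adult beta pair and 26 to 85 for the embryonic beta pair.
Hba-a1: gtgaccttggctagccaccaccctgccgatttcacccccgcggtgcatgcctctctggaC
Hba-a2: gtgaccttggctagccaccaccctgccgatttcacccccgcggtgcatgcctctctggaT
Hbb-b1: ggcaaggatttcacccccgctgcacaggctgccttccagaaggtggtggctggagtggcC
Hbb-b2: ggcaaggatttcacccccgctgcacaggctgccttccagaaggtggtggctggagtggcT
Hbb-bh1: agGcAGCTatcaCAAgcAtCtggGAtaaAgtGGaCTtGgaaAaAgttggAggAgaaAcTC
Hbb-y: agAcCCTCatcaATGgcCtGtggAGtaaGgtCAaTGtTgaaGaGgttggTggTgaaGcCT
A single base separates the adult copies in these stretches, whereas Hbb-bh1 and Hbb-y differ at 25 of the 60.

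Of all 50-base windows of a gene's transcripts, the share found in no other annotated gene was 27.7% for Hba-a1, 10.7% for Hba-a2, 46.8% for Hbb-b1 and 41.7% for Hbb-b2. It was 100% for Hba-x, Hbb-y, Hbb-bh1 and Hbb-bh0. How the authors counted reads that fit more than 1 gene is not recorded in the sources used here. Levels of the adult genes are therefore uncertain against those of the embryonic genes, and the split within each adult pair is uncertain too. A difference between groups within 1 embryonic gene is not touched by this sharing.

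**Figure D1:**
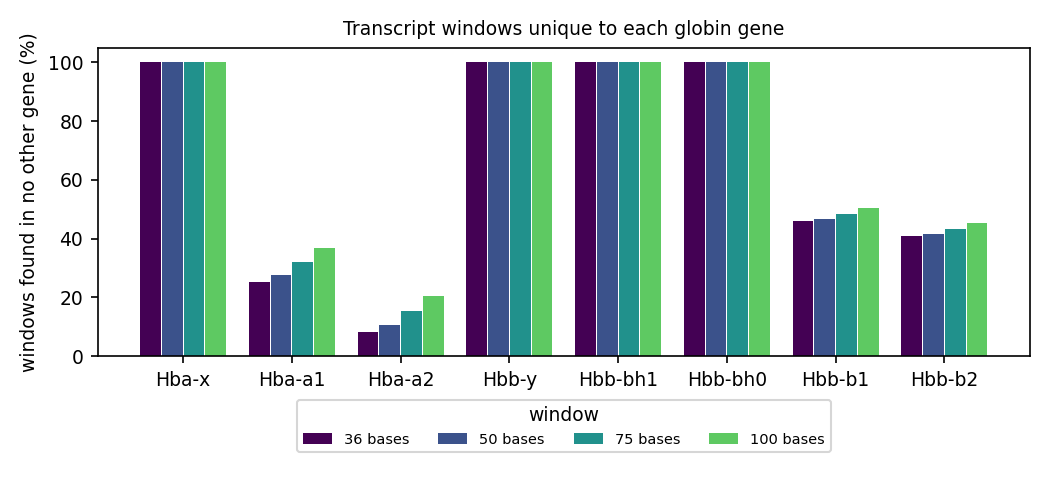
Share (percent, vertical axis) of transcript windows of 36, 50, 75 and 100 bases (bar colours) that occur in no other annotated gene, for each globin gene (horizontal axis). The 3 expressed embryonic genes and Hbb-bh0 stand at 100%, and for 50-base windows the 4 adult genes lie between 10.7% and 46.8%.

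Promoters are shown because members that share a cluster differed in how they changed with age. Each is the 120 bases before the RefSeq start on GRCm38.p6, written 5′ to 3′ on the gene's own strand. RefSeq and GENCODE place the starts differently. The printed stretches of Hba-x, Hba-a1 and Hbb-b1 lie inside the GENCODE coordinates given above, and those of Hbb-y and Hbb-b2 in part. A search of the 250 bases before each start covered both strands for CACCC (the core of the site of KLF1-type factors), CCAAT, and the GATA words AGATAA or AGATAG or TGATAA or TGATAG. Capitals mark the matches on either strand, none of which overlapped another.
Hba-x, chr11:32276480-32276599, plus strand: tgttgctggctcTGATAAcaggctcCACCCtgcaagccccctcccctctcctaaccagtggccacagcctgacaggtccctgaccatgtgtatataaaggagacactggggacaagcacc
Hba-a1, chr11:32283552-32283671, plus strand: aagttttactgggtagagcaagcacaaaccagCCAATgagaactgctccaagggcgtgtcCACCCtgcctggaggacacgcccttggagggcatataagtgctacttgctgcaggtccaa
Hbb-y, chr7:103853208-103853327, minus strand: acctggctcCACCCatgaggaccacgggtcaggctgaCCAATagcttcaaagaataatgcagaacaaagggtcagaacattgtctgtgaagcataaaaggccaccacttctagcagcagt
Hbb-b1 (Hbb-bs in RefSeq), chr7:103827929-103828048, minus strand: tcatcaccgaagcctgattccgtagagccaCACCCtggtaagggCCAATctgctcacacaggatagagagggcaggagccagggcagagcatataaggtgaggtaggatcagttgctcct
Hbb-b2 (Hbb-bt in RefSeq), chr7:103813924-103814043, minus strand: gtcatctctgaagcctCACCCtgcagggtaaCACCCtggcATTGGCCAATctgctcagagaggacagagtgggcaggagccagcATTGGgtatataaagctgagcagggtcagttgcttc
All 6 globin promoters in the RefSeq table held CACCC within 250 bases, against 52.0% of 32851 mouse promoters. CCAAT was present in all but Hba-x (33.8% of all promoters), and a GATA word in all but Hbb-bt (26.5%). The promoters of Hba-a1 and Hba-a2 shared a run of 247 identical bases, so only the first is printed. Hbb-b1 and Hbb-b2 each had a CCAAT about as far from the start, its last base 72 and 71 bases upstream. A match is only a match of letters, and nothing in these data measures binding. Promoters of Hbb-bh1 and Hbb-bh0 are not shown.

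Limb mesenchyme markers were present in all 13 libraries (Prrx1 at 37.7 to 51.7 RPKM), as were the red cell markers Alas2 (21.9 to 38.5) and Slc4a1 (20.3 to 35.2). None of the 10 fetal liver hepatocyte markers, Alb, Afp and Ttr among them, was listed. Sox9 itself was at 35.8, 49.3 and 37.1 RPKM in the E11.5 controls and 20.6, 25.7, 25.0 and 22.7 in Sox9null. At E12.5 it was at 37.5, 35.2 and 35.9 in controls and 35.1, 28.7 and 32.2 in Sox9cKO, so every mutant lay below every control of its age. Clustered with the globin genes left out, the E11.5 libraries split in 2: Sox9null 3 and 4 with controls 1 and 3 (the set of 4), and Sox9null 1 and 2 with control 2 (the set of 3). Across genes r was 0.979 to 0.989 within the sets and 0.938 to 0.966 between them. Y-linked genes were high in all 3 E12.5 controls but in only 1 of 3 Sox9cKO (replicate 3), and at E11.5 in control 1 and Sox9null 3. Total depth is unknown.

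Hbb-y was by far the most abundant globin transcript, at ranks 5 to 7 of all listed genes in each library and with 369.5 to 766.0 RPKM. Hbb-bh1 followed with 74.1 to 306.0 RPKM and Hba-x with 79.7 to 243.0, and both ranked within the first 70 genes. The adult genes were much lower. Hba-a1 ranged from 21.4 to 41.1 RPKM, Hbb-b2 from 12.6 to 41.2, Hbb-b1 from 14.9 to 28.9 and Hba-a2 from 11.1 to 24.3. Hbb-bh0 ranged from 5.50 to 54.9. By mean over libraries the order was Hbb-y, Hbb-bh1, Hba-x, Hba-a1, Hbb-b2, Hbb-bh0, Hbb-b1, Hba-a2. Hbb-y lay above Hbb-bh1 and Hba-x above Hba-a1 in 13 of 13 libraries. Hbb-bh1 and Hba-x were close neighbours, with Hbb-bh1 higher in 9 of 13. Among the lower genes neighbours changed places: Hba-a1 lay above Hbb-b2 in 5 of 13 libraries, Hbb-b2 above Hbb-bh0 in 7, Hbb-bh0 above Hbb-b1 in 7 and Hbb-b1 above Hba-a2 in 11. These orders compare RPKM, a scale per gene length, and the place of the adult genes in them is subject to the shared reads. All 8 genes together made up 0.252% to 0.558% of the summed RPKM of a library.

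**Figure D2:**
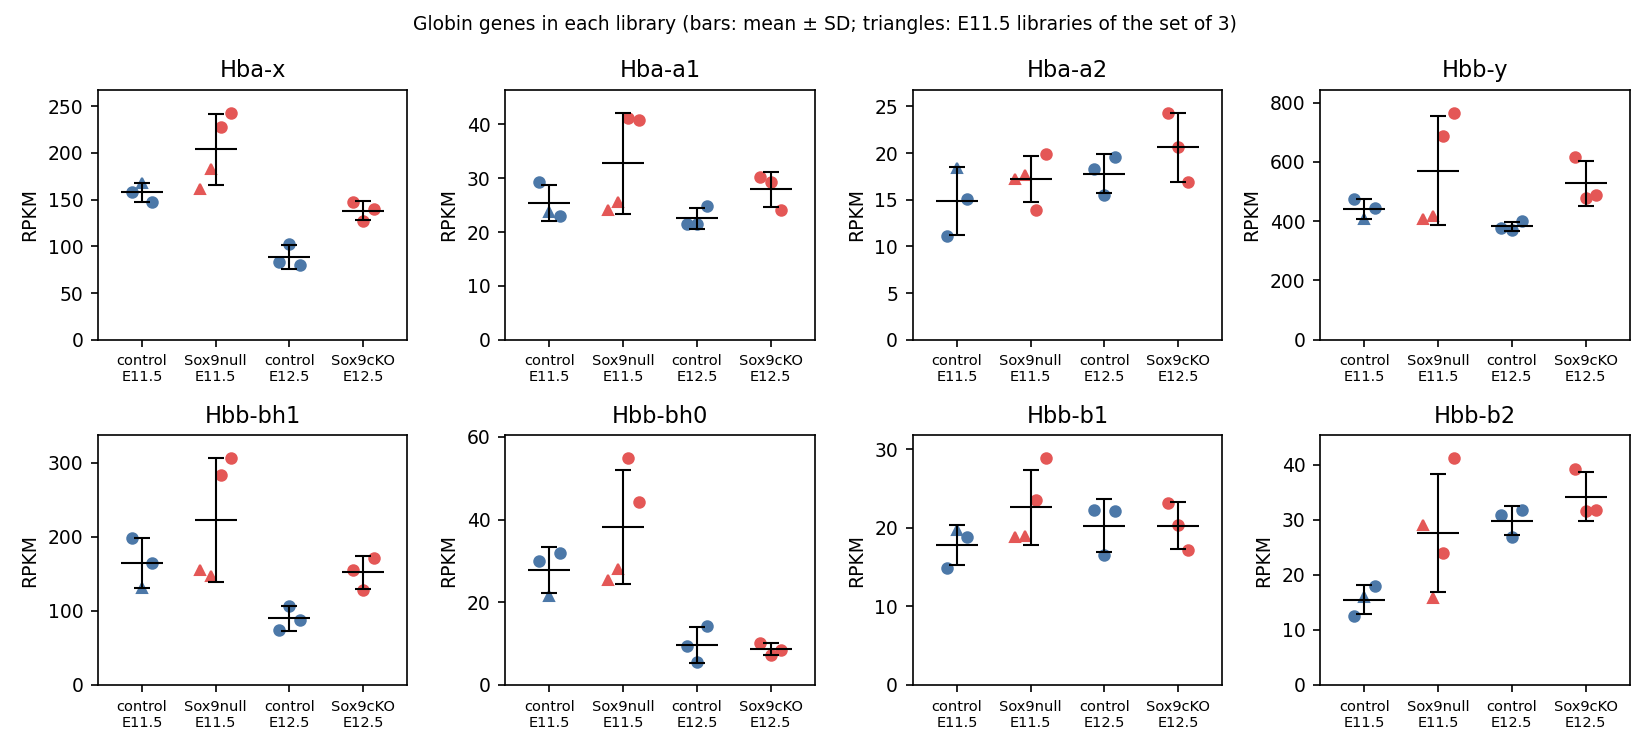
Normalized RPKM (vertical axes, linear, from 0) of each globin gene in each library of the 4 groups, controls in blue and mutants in red. Horizontal bars are group means with SD and triangles mark the set of 3 at E11.5. Hba-x and Hbb-bh0 stand lower at E12.5 in controls and in mutants. In controls only, Hbb-bh1 stands lower and Hbb-b2 higher without overlap. Sox9null 3 and 4 are the highest libraries for Hba-x, Hbb-y and Hbb-bh1.

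From E11.5 to E12.5 some embryonic globin transcripts were lower in control limb buds, though not the most abundant, and 1 adult transcript was higher. Hba-x, Hbb-bh1 and the pseudogene Hbb-bh0 fell, Hbb-b2 rose, and Hbb-y, Hba-a1, Hba-a2 and Hbb-b1 did not pass the test. The test was limma on log2(RPKM + 1) over all listed genes with Benjamini-Hochberg adjustment, a gene being called at an adjusted p under 0.05. In this comparison 5.19% of all genes were called lower and 16.5% higher, against 3 and 1 of the 8 globin genes. The direction of the calls over all genes depended on scaling: 2126 higher and 668 lower became 1364 and 1935 when each library was centred on its median, and the 4 globin calls stayed. In a bulk sample, fewer red cells and less globin RNA per red cell cannot be told apart, nor can either be told apart from a change in the other cells of the limb bud.

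Hba-x, which encodes the embryonic zeta chain, was at 158.4, 167.3 and 147.6 RPKM in the E11.5 controls and 83.2, 102.7 and 79.7 in the E12.5 controls. The groups did not overlap, with means of 157.7 ± 9.88 and 88.5 ± 12.4 (SD, n = 3 each). The log2 difference was -0.83 (SE 0.15, limma adjusted p = 0.00319). In mutants it was at 161.5, 182.7, 227.4 and 243.0 in Sox9null and 147.2, 127.1 and 140.4 in Sox9cKO, again without overlap. There it fell by 0.54 on the log2 scale (SE 0.141, limma adjusted p = 0.0224). That second call did not hold when any 1 of the 3 Sox9cKO libraries was left out (limma adjusted p 0.0543 to 0.102).

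Hbb-bh1, the beta-h1 gene that primitive red cells use first, was at 198.4, 131.4 and 164.6 RPKM in the E11.5 controls and 74.1, 107.1 and 88.1 in the E12.5 controls. Each later control lay below each earlier one. The means were 164.8 ± 33.5 and 89.8 ± 16.6 (SD, n = 3 each), and the log2 difference was -0.87 (SE 0.282, limma adjusted p = 0.047). The call lies close to the threshold and was lost without E11.5 control 1 or 3, any E12.5 control or any Sox9cKO library, with limma adjusted p from 0.0572 to 0.164 and log2 differences from -1 to -0.72. In mutants, Hbb-bh1 was at 154.9, 146.9, 283.3 and 306.0 in Sox9null and 155.1, 128.8 and 171.9 in Sox9cKO, which overlap. The difference of -0.48 did not pass (SE 0.263, limma adjusted p = 0.207). With the E11.5 library set as a term it was -0.53 and passed (SE 0.146, limma adjusted p = 0.0122, range over the alternatives 0.00367 to 0.455). In that fit 6364 of the 12880 genes were called with age in mutants, against 2539 without the term.

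Hbb-y, the epsilon-y gene that takes over from Hbb-bh1 in primitive red cells, was not called with age. It was at 475.3, 406.8 and 443.1 RPKM in the E11.5 controls and 378.6, 369.5 and 400.1 in the E12.5 controls. The later controls lay just below the earlier ones without overlap, and the log2 difference of -0.20 did not pass (SE 0.234, limma adjusted p = 0.559). In mutants it was at 408.1, 419.0, 688.2 and 766.0 in Sox9null and 615.8, 478.3 and 489.1 in Sox9cKO, with the later values inside the earlier range. The difference there was -0.06 (SE 0.219, limma adjusted p = 0.857).

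The pseudogene Hbb-bh0, which lies between Hbb-y and Hbb-bh1, had the steepest fall of the 8. It was at 30.0, 21.4 and 31.9 RPKM in the E11.5 controls and 9.45, 5.50 and 14.2 in the E12.5 controls, and the log2 difference was -1.49 (SE 0.323, limma adjusted p = 0.00796). In mutants it was at 25.5, 28.0, 54.9 and 44.3 in Sox9null and 10.1, 7.33 and 8.55 in Sox9cKO, a difference of -1.96 (SE 0.302, limma adjusted p = 0.00302). No later library reached any earlier one in either class. Both calls held under all 26 alternatives.

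Among the adult genes Hbb-b2 rose in controls. It was at 12.6, 15.9 and 17.9 RPKM in the E11.5 controls and 30.9, 26.8 and 31.8 in the E12.5 controls, with means of 15.5 ± 2.69 and 29.8 ± 2.66 (SD, n = 3 each). The groups did not overlap and the log2 difference was 0.91 (SE 0.258, limma adjusted p = 0.0262). The call was lost without E11.5 control 1 or 2 or E12.5 control 1 or 3 (limma adjusted p 0.052 to 0.0934). In mutants Hbb-b2 was at 29.0, 15.7, 23.9 and 41.2 in Sox9null and 39.2, 31.6 and 31.7 in Sox9cKO, which overlap, and the difference of 0.38 did not pass (SE 0.241, limma adjusted p = 0.274). Without Sox9null 4 it was 0.59 and passed (limma adjusted p = 0.0493), and over all single libraries left out it ranged from 0.15 (without Sox9null 2) to 0.59.

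Hbb-b1, near-identical to Hbb-b2 in the reference sequence, was at 14.9, 19.7 and 18.8 RPKM in the E11.5 controls and 22.3, 16.5 and 22.1 in the E12.5 controls, which overlap. In mutants it was at 18.9, 19, 23.6 and 28.9 in Sox9null and 23.2, 20.4 and 17.2 in Sox9cKO. Its log2 differences of 0.18 (SE 0.175) and -0.14 (SE 0.164) had limma adjusted p of 0.489 and 0.567. Hbb-b2 as a share of Hbb-b1 and Hbb-b2 was 44.7% to 48.8% in the E11.5 controls and 58.1% to 62.0% in the E12.5 controls. In Sox9null it was 45.2% to 60.6% and in Sox9cKO 60.7% to 64.8%, so the later libraries lay above the earlier ones in both classes.

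Neither adult alpha gene was called with age. Hba-a1 was at 29.3, 23.8 and 23.0 RPKM in the E11.5 controls and 21.4, 21.5 and 24.8 in the E12.5 controls, and at 24.0, 25.5, 41.1 and 40.8 in Sox9null and 30.2, 29.3 and 24.1 in Sox9cKO. Its log2 differences with age were -0.16 in controls (SE 0.195, limma adjusted p = 0.586) and -0.19 in mutants (SE 0.182, limma adjusted p = 0.465). Hba-a2 was at 11.1, 18.4 and 15.1 in the E11.5 controls and 18.3, 15.5 and 19.6 in the E12.5 controls, and at 17.2, 17.6, 13.9 and 19.9 in Sox9null and 24.3, 20.6 and 16.9 in Sox9cKO. Its differences were 0.27 (SE 0.178, limma adjusted p = 0.303) and 0.25 (SE 0.167, limma adjusted p = 0.301). For both genes the ages overlapped in each class.

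In mutants, 2 of the 8 genes were called lower with age and none higher, against 5.23% and 14.5% of all genes (1865 higher and 674 lower, or 1152 and 1393 with each library centred on its median). The difference with age was also tested over both classes at once for each gene, by an exact two-sided permutation test that exchanged ages within controls and within mutants (700 arrangements). Over 16 such tests in all, unadjusted, Hbb-bh0 (mean log2 difference -1.72) gave exact p = 0.00143, the smallest the design allows, and Hba-x (-0.69) exact p = 0.00286. Hbb-b2 (0.65) gave exact p = 0.0157 and Hbb-bh1 (-0.67) exact p = 0.0171. The other 4 had exact p from 0.0771 to 0.881. What share of all genes would reach such values was not determined.

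**Figure D3:**
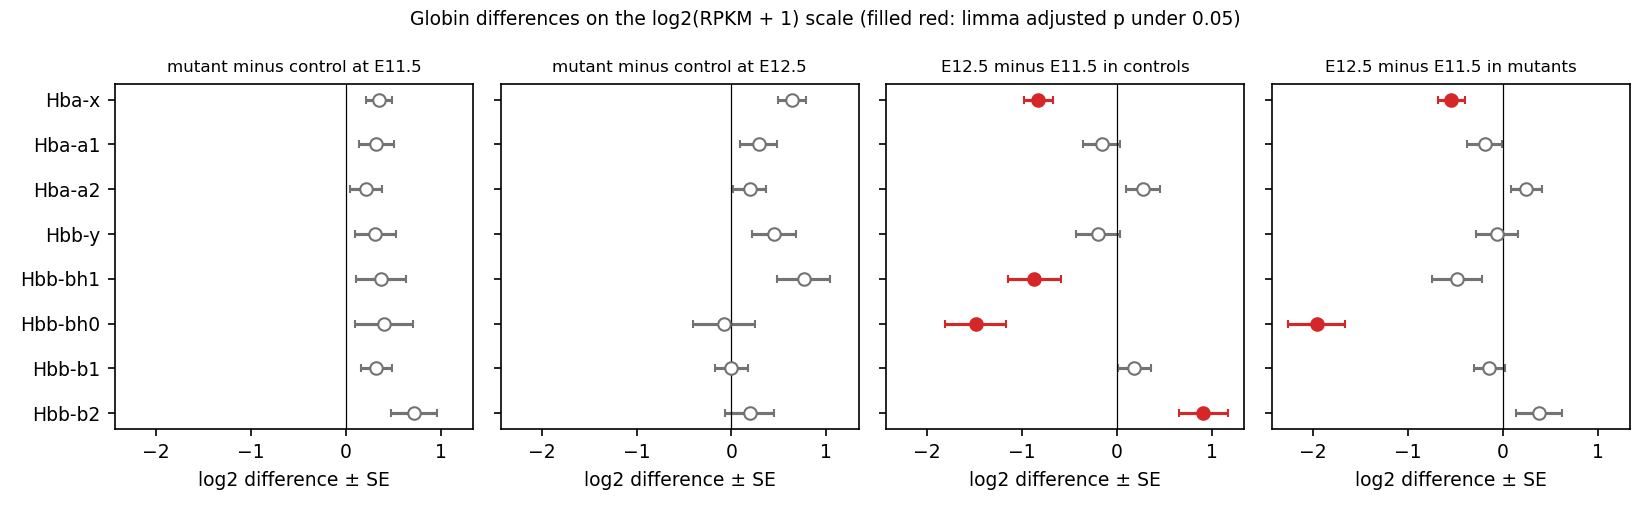
Log2 differences (horizontal axes, on the log2(RPKM + 1) scale) with their SE for the 8 globin genes in 4 comparisons. Filled red points have a limma adjusted p under 0.05: Hba-x, Hbb-bh1, Hbb-bh0 and Hbb-b2 with age in controls, Hba-x and Hbb-bh0 with age in mutants, and none between mutants and controls.

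Between Sox9-deficient and control limb buds no globin gene passed the test at either age, although most mean levels were higher in the mutants. At E11.5, limma called 0 of 8 globin genes, against 0.0543% of all genes, and every limma adjusted p was 1. All 8 log2 differences lay above 0, with a median of 0.34 beside 0.01 over all genes. At unadjusted p under 0.05 there were 2 globin genes, Hba-x (0.35, SE 0.141) and Hbb-b2 (0.72, SE 0.241), and 363 genes in all. Mutants and controls overlapped for each of the 8, while for 2.47% of all genes they did not overlap, in either direction.

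The E11.5 differences were larger in the set of 4 libraries than in the set of 3. In the set of 4, mean Hbb-y was 459.2 RPKM in controls and 727.1 in Sox9null, Hbb-bh1 181.5 and 294.6, and Hba-x 153.0 and 235.2. The log2 differences of the 8 genes in that set ran from 0.34 (Hba-a2) to 1.02 (Hbb-b2). In the set of 3, mean Hbb-y was 406.8 and 413.5 RPKM, Hbb-bh1 131.4 and 150.9, and Hba-x 167.3 and 172.1. There the log2 differences ran from -0.08 (Hba-a2) to 0.41 (Hbb-b2). The highest E11.5 values of Hba-x, Hbb-y and Hbb-bh1 were those of Sox9null 3 and 4, and the within-set values rest on 1 or 2 libraries a group. With the set as a term no globin gene passed, with limma adjusted p from 0.195 (Hbb-bh1) to 0.647 (Hba-a2).

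At E12.5, limma again called 0 of 8, against 0.194% of all genes, with 2 globin genes and 697 genes in all at unadjusted p under 0.05. Of the 8 log2 differences 7 lay above 0 (Hbb-b1 by 0.00 after rounding), with a median of 0.24 beside 0.01 over all genes. The embryonic genes showed the clearest separation. Hba-x averaged 88.5 ± 12.4 RPKM in controls and 138.2 ± 10.2 in Sox9cKO (SD, n = 3 each), and the log2 difference was 0.64 (SE 0.15, limma adjusted p = 0.169). Hbb-bh1 averaged 89.8 ± 16.6 and 151.9 ± 21.7, a difference of 0.76 (SE 0.282, limma adjusted p = 0.635), and Hbb-y 382.8 ± 15.7 and 527.7 ± 76.5, a difference of 0.45 (SE 0.234, limma adjusted p = 1). For these 3 each Sox9cKO library lay above each control. Over all genes 20% did not overlap between the groups in either direction (1483 higher and 1095 lower in Sox9cKO), against 3 of the 8 globin genes. The adult genes and Hbb-bh0 overlapped between the groups, with differences from -0.08 (Hbb-bh0) to 0.29 (Hba-a1). Only 1 of the 3 Sox9cKO libraries had Y-linked RNA at the level of the 3 controls. With sex as a term the differences were 0.71 for Hba-x (SE 0.172, limma adjusted p = 0.125) and 1.05 for Hbb-bh1 (SE 0.285, limma adjusted p = 0.178).

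Over both ages together, the exact two-sided permutation test that exchanged labels within each age gave exact p = 0.00571 for Hba-x (mean log2 difference 0.50), 0.0286 for Hbb-bh1 (0.57), 0.0314 for Hbb-y (0.38), 0.0371 for Hbb-b2 (0.46) and 0.0471 for Hba-a1 (0.31). For Hba-a2, Hbb-b1 and Hbb-bh0 it gave exact p from 0.149 to 0.531. These are unadjusted and belong to the same 16 tests. The tests were run on the 8 globin genes only, so no share over all genes stands beside them. The exchange within each age took no account of the E11.5 library sets or of sex. On RPKM without the log scale the exact p of Hba-a1 was 0.0657. The mutant difference itself was not shown to depend on age: limma called 0 of 8 globin genes for the difference of the effects (0.0311% of all genes), 0 of 8 and 393 genes in all at unadjusted p under 0.05. The extremes were Hbb-bh1 (0.39, SE 0.386) and Hbb-b2 (-0.54, SE 0.353), both with a limma adjusted p of 1. Single libraries left out moved them from 0.21 (without Sox9null 2) to 0.56 (without Sox9null 4) and from -0.77 (without Sox9null 2) to -0.32 (without Sox9null 4), with no call.

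The make-up of the globin pool differed between the ages. Hba-x made up 79.5% to 79.8% of alpha-type RPKM in the E11.5 controls and 79.7% to 80.9% in Sox9null. At E12.5 it made up 67.7%, 73.5% and 64.2% in controls and 73.0%, 71.8% and 77.4% in Sox9cKO, with no overlap between ages in either class. Hbb-bh1 made up 29.4%, 24.4% and 27.1% of embryonic beta RPKM (Hbb-bh1 and Hbb-y) in the E11.5 controls and 16.4%, 22.5% and 18% in the E12.5 controls, again without overlap. In Sox9null the share was 26.0% to 29.2% and in Sox9cKO 20.1% to 26.0%, so the ages met at the edge in mutants.

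The adult genes Hbb-b1 and Hbb-b2 made up 3.92%, 6.20% and 5.70% of beta-type RPKM without the pseudogene in the E11.5 controls and 10.5%, 8.32% and 9.95% in the E12.5 controls. In mutants the share was 4.66% to 7.85% at E11.5 and 6.89% to 7.89% at E12.5, which overlap. At E12.5 each Sox9cKO library (7.50%, 7.89% and 6.89%) had a smaller adult share than each control. The ratio of alpha-type to beta-type RPKM was 0.312 ± 0.0459 in the E11.5 controls (SD, n = 3) and 0.247 ± 0.0203 in the E12.5 controls (SD, n = 3). When RPKM was divided by the share of unique 50-base windows, a fixed factor for each gene, Hba-x came to 40.7% ± 2.03 of alpha-type RPKM in the E11.5 controls and 26.4% ± 4.62 in the E12.5 controls (SD, n = 3 each). Shares carry no test, since they are scores over the chosen genes.

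**Figure D4:**
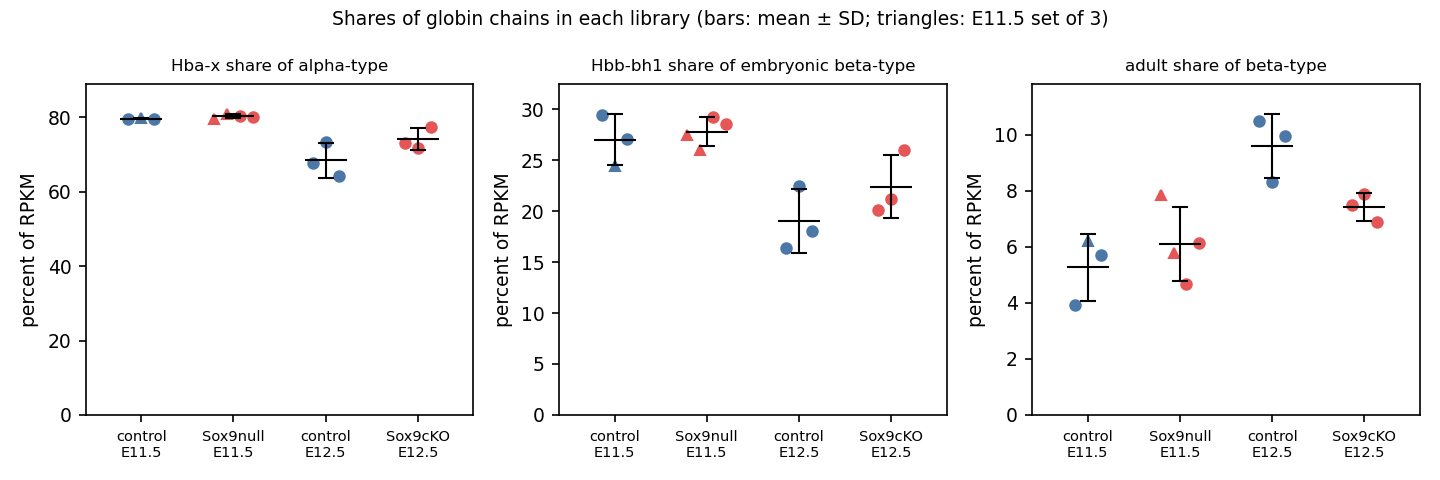
Share of RPKM (percent, vertical axes from 0) of Hba-x among alpha-type genes, of Hbb-bh1 among Hbb-bh1 and Hbb-y, and of Hbb-b1 and Hbb-b2 among beta-type genes, in each library of the 4 groups. Bars are means with SD and triangles the E11.5 set of 3: the Hba-x share lies between 79.5% and 80.9% in all 7 libraries at E11.5 and between 64.2% and 77.4% at E12.5.

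Other red cell genes were summed as a rough measure of blood RNA in each library, though which cells their RNA came from was not tested. Of 24 symbols of red cell membrane and cytoskeleton genes, 18 were listed, and their summed RPKM was 186.6 ± 8.48 in the E11.5 controls (SD, n = 3) and 192.8 ± 7.05 in the E12.5 controls (SD, n = 3). It was 219.3 ± 15.2 in Sox9null (SD, n = 4) and 247.6 ± 12.2 in Sox9cKO (SD, n = 3), each mutant library lying above each control of its age. At E12.5 the Rh-associated glycoprotein gene Rhag (2.92 and 5.69 RPKM, log2 difference 0.77, limma adjusted p = 0.0375) and the beta-spectrin gene Spnb1 (5.22 and 9.49, 0.76, limma adjusted p = 0.0159) rose in mutants. Of all genes, 0.194% were called in this comparison. The other 16 membrane genes did not pass, and the anion exchanger Slc4a1 had 23.6 and 32.9 RPKM (0.46, limma adjusted p = 0.1). The medians of the list were 0.31 at E11.5 and 0.48 at E12.5 beside 0.01 over all genes. At E12.5, 16 of the 18 log2 differences lay above 0. Some genes with a large part in the sum hardly differed between E12.5 controls and Sox9cKO: Slc2a1 (35.7 and 34.1 RPKM), Epb4.1 (29.5 and 31) and Gypc (27.2 and 28.9). Whether the amount of blood sets the globin differences between mutants and controls was not tested, and the values that follow depend on the make-up of this sum.

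Per RPKM of these membrane genes, the 3 embryonic globins stood at 4.57, 3.59 and 4.16 in the E11.5 controls and 2.89, 2.90 and 2.94 in the E12.5 controls. In mutants they stood at 3.59, 3.55, 5.20 and 5.63 in Sox9null and 3.53, 3.11 and 3.25 in Sox9cKO. The later libraries lay below the earlier ones in both classes, and at E12.5 each Sox9cKO library lay above each control. The E12.5 order cannot show more embryonic globin for the same amount of blood, because genes such as Slc2a1 weigh in the sum and hardly differed. Ratios to a narrower set of red cell genes were not computed, and the scaling that follows has the same limit. With libraries scaled to the membrane genes, the fall of Hba-x with age was -0.88 in controls (SE 0.114, limma adjusted p = 0.000361) and -0.71 in mutants (SE 0.107, limma adjusted p = 0.00139). The mutant difference at E12.5 shrank from 0.64 to 0.29 for Hba-x (SE 0.114, limma adjusted p = 0.0348, range over the alternatives 0.0308 to 0.762) and from 0.45 to 0.09 for Hbb-y (SE 0.196). That scaling moved the median of all genes at E12.5 from 0.01 to -0.33, and at E11.5 to -0.21. With it, the calls over all genes at E12.5 went from 7 higher and 18 lower to 25 and 9557.

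**Figure D5:**
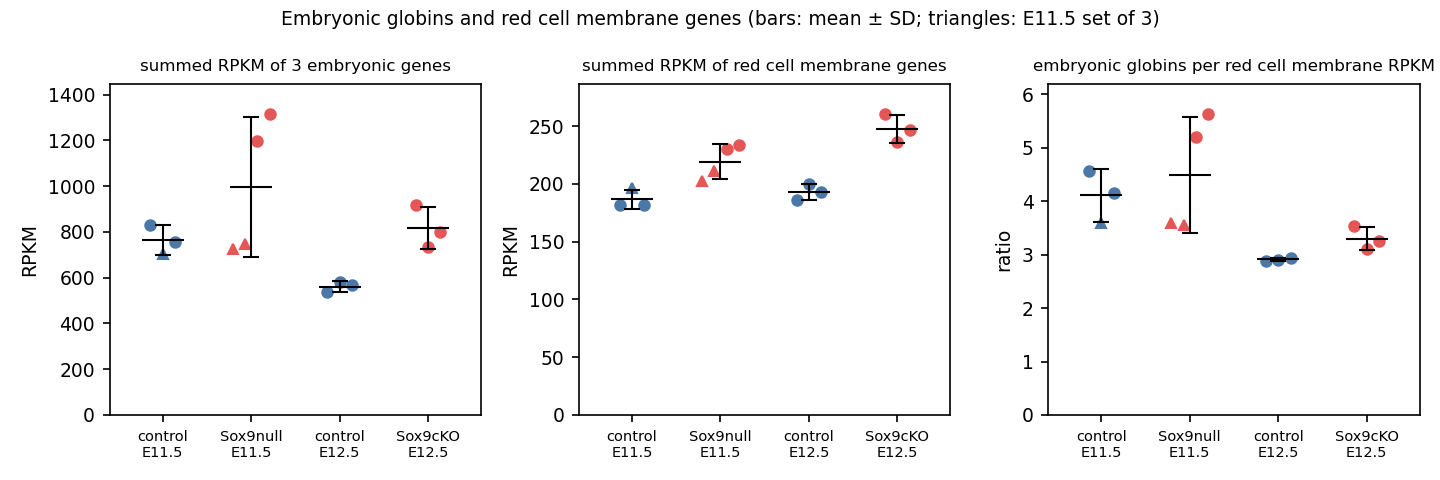
Summed RPKM of Hba-x, Hbb-y and Hbb-bh1 (left), summed RPKM of 18 red cell membrane genes (middle) and their ratio (right) in each library of the 4 groups, on linear axes from 0. Bars are means with SD and triangles the E11.5 set of 3: the ratio lies between 3.55 and 5.63 at E11.5 and between 2.89 and 3.53 at E12.5.

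Genes that serve the globins in red cells are given beside the shares of all genes called with age, 16.5% higher and 5.19% lower in controls and 14.5% higher and 5.23% lower in mutants. Of 16 genes of haem synthesis and iron uptake, ferrochelatase Fech, which inserts iron into haem, rose in controls (22.0 to 25.1 RPKM, log2 difference 0.19, limma adjusted p = 0.0433) and in mutants (24.7 to 29.4, 0.24, limma adjusted p = 0.0129). The haem-degrading Hmox1 also rose in mutants (log2 difference 0.26, limma adjusted p = 0.0312). None of the 16 was called between mutants and controls. The first enzyme of haem synthesis in red cells, Alas2, was at 25.5, 32.1, 26.2 and 32.2 RPKM in the 4 groups. Of the 18 membrane genes, the water channel Aqp1 and the tropomodulin Tmod1 rose and Spnb1 fell with age in controls, while Epb4.2 and Tmod1 rose in mutants.

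Among 13 listed genes of the red cell cytosol and late erythroid stages, those called with age included Fam132a and Hebp1, which rose in both classes, Trim10, which rose in mutants, and Hemgn, which fell in controls (9.45 to 4.30 RPKM, log2 difference -1.08, limma adjusted p = 0.0314). None was called between mutants and controls. Of 13 erythroid transcription factors and receptors, Ldb1 fell with age in both classes and Myb rose in mutants (8.87 to 10.9 RPKM, 0.28, limma adjusted p = 0.0179). Gata1, the master factor of red cell genes, was at 2.85, 4.02, 2.17 and 4.62 RPKM in the 4 groups, and Klf1, which drives adult beta globin, at 7.08, 8.50, 4.84 and 9.95. Neither was called in any comparison. The 2 other globin genes listed, Hbq1b (theta) and Cygb (cytoglobin), were at 1.89 to 3.96 and 2.73 to 3.75 RPKM by group mean, with no call.

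Most genes known to regulate globin switching are also expressed outside red cells, and which cells of the limb bud their RNA came from was not tested. Of 21 listed, 11 fell and 2 rose in controls, beside 5.19% of all genes lower and 16.5% higher, with a median of -0.23 beside 0.06 over all genes. In mutants 4 fell and 3 rose, beside 5.23% and 14.5%, with a median of -0.13. The number of all genes called lower depended on scaling, 668 as reported and 1935 with each library centred on its median in controls. The let-7 antagonist Lin28a went from 6.52 to 1.82 RPKM (log2 difference -1.35, limma adjusted p = 0.00845), and Lin28b from 29.4 to 18.6 (-0.64, limma adjusted p = 0.0184). The fetal RNA-binding gene Igf2bp1 fell from 55.3 to 40.0 RPKM (-0.46, limma adjusted p = 0.00719) and Hmga2 from 39.1 to 26.8 (-0.53, limma adjusted p = 0.00319). The chromatin genes Chd4, Dnmt1, Ezh2, Hdac1, Kdm1a, Mbd3 and Mta2 fell by 0.16 to 0.47 on the log2 scale. Sox6, a repressor of Hbb-y in red cells that is also a cartilage gene, rose in controls from 8.84 to 20.2 RPKM (1.16, limma adjusted p = 0.00562) and in mutants from 3.87 to 8.45 (0.93, limma adjusted p = 0.0155). Mbd2 rose in both classes. The 4 that fell in mutants were Chd4, Ezh2, Hmga2 and Mbd3, and Myb rose there as well. Bcl11a, a repressor of embryonic globins, was at 18.8, 19.5, 15.4 and 15.9 RPKM in the 4 groups without a call. None of the 21 was called between mutants and controls.

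Other lists were read beside the globins. Another 8 listed genes had been chosen as neighbours of the alpha cluster, but their positions in the mouse genome were not checked. Of these, Itfg3 rose with age in both classes and Rhbdf1 in controls. Nprl3, whose introns hold alpha globin enhancers, was at 11.4 to 12.3 RPKM by group mean. No gene of the 7 listed for megakaryocytes and platelets was called in any comparison. Of 16 endothelial genes, Tek rose with age in both classes and Pecam1 in mutants. All 16 lay above 0 between mutants and controls at each age without a call, with medians of 0.14 and 0.09. Of 10 listed macrophage genes, 9 rose with age in controls and 8 in mutants, beside 16.5% and 14.5% of all genes. The complement genes C1qa, C1qb and C1qc, the fractalkine receptor Cx3cr1, the mannose receptor Mrc1, Emr1, F13a1 and Tyrobp rose in both, and the growth factor receptor Csf1r rose in controls. Of 14 limb mesenchyme genes, Tbx4 fell with age in both classes, Pitx1 fell and Msx2 rose in controls.

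Among the globins themselves, levels across the 13 libraries were most alike for Hba-a1 and Hbb-y (Pearson r 0.93 of log2 values) and for Hba-x and Hbb-bh1 (0.92). Hba-x and Hbb-b2 had r of -0.20. Of 11653 other genes compared, the 8 whose log2 levels followed the summed embryonic globins most closely were Snrpe, Lypla1, Gpx1, Fkbp2, Prkag2, Sarnp, Hist2h4 and RNase_MRP, with r from 0.93 to 0.89. Gpx1 ranged from 61.2 to 105.7 RPKM, and none of these 8 genes was in the red cell lists above. For the summed adult globins they were Nptn, Mff, Nrn1, Mfsd8, Cd59a, Hist3h2bb-ps, Pdzk1ip1 and Chchd10, with r from 0.89 to 0.83. These are descriptions over 13 libraries that share age, genotype and library set.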

How the data were processed

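RNA-seq was measured in 13 limb bud libraries of 4 groups (3, 4, 3 and 3). Per the labels, the RNA (RNeasy Mini Kit) went into standard Illumina libraries. CASAVA 1.8 and mm10 are named in the submitters' processing notes; for aligner, counting, strand and annotation release the sources used here give nothing. The deposited values, per the file headers, are normalized RPKM of genes with a mean of at least 3 in at least 1 group, and the deposited p-value per gene is a one-way analysis over the 4 groups adjusted for false discovery. In the authors' deposited table that p-value was 0.00382 for Hba-x, 0.00705 for Hbb-bh0, 0.062 for Hbb-bh1, 0.075 for Hbb-b2 and 0.318 to 0.611 for the other 4 globin genes. Columns were assigned to groups by the header's block headings.

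Total depth is unknown: low values times exon length did not fall on whole reads (34.3% to 40.9% of short genes' values lay within 0.15 of a whole multiple, against 30% for evenly spread values), so no count model or interval was used. A minimum of 1 RPKM in 3 or more libraries removed 0 of 12880 genes. The values log2(RPKM + 1) were fitted with limma 3.58.1 in R 4.3.3 (trend, robust, 4 group means over 13 libraries, two-sided, Benjamini-Hochberg over all genes). Fold changes on this scale understate changes of low genes. The method was tested on simulated data. Single genes were also tested by exact permutation within strata. Replicates are separate embryos per the file headers. The globin genes and gene lists were chosen with earlier results of these data known. All 8 globin genes are given; of each list, called genes or at most 3 others by level are named. A called gene of the red cell cytosol list is not reported here. The lists were other globins, haem synthesis and iron uptake, red cell membrane, red cell cytosol, erythroid factors, switching regulators, genes chosen as alpha cluster neighbours (positions not checked), platelet, endothelial, macrophage, hepatocyte, limb mesenchyme and Y-linked genes.

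Alternatives changed the pseudocount, filter, scaling, libraries fitted, prior variance, library set, sex, replicate block and each library in turn; leaving out the E11.5 set of 3 and dividing by unique windows were added after seeing the data. Coordinates and coding sequences are from GENCODE M21 (GRCm38), promoters from RefSeq (GRCm38.p6), with 6 of the 8 genes matched.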

Additional observations from a re-analysis of the deposited data

How the results depend on the processing

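Of the calls with age in controls, those of Hba-x and Hbb-bh0 held under 26 of 26 alternatives, that of Hbb-b2 under 22 and that of Hbb-bh1 under 18, all losses coming from single libraries left out. In mutants the call of Hbb-bh0 held under 26 of 26 and that of Hba-x under 22. Over single libraries left out, the number of globin genes called ranged from 2 to 4 in controls and from 1 to 3 in mutants. In mutants it was 1 rather than 2 when only the compared groups were fitted (Hba-x, limma adjusted p = 0.0729), and 5 without the E11.5 set of 3, an alternative chosen after seeing the data. Under these 2 alternatives 922 and 4498 genes in all were called with age in mutants, against 2539 as reported. Between mutants and controls at E12.5 the count was 1 rather than 0, Hba-x, when libraries were scaled to red cell membrane genes and, at 0.64 with a limma adjusted p of 0.0308, without the E11.5 set of 3. Over all genes that scaling called 9582 and that omission 84, against 25 as reported.

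Several differences that were not called changed sign. Scaled to membrane genes, Hba-a2 had -0.01 between mutants and controls at E11.5, and at E12.5 Hba-a1 had -0.06, Hba-a2 -0.15, Hbb-b1 -0.34 and Hbb-b2 -0.16. With sex as a term the E12.5 values were -0.09 for Hba-a2, 0.15 for Hbb-bh0 and -0.11 for Hbb-b1, and Hbb-b1 had -0.01 when scaled to genes other than globins. Over single libraries left out, the E12.5 mutant difference ranged from -0.40 to 0.22 for Hbb-bh0 and from -0.14 to 0.11 for Hbb-b1, and the age difference of Hbb-y in mutants from -0.21 to 0.10. With sex as a term the difference of Hba-a2 with age in controls passed (0.55, limma adjusted p = 0.0095, range over the alternatives 0.0095 to 0.754).

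Multiplying RPKM by exon length gave Hba-x 82.9% of alpha-type reads in the E11.5 controls, 83.4% in Sox9null and 78.1% in Sox9cKO, and the adult beta genes 11.0% in the E12.5 controls and 8.49% in Sox9cKO. Dividing by unique windows gave Hba-x 40.7%, 42.1%, 26.4% and 32.3% in the order E11.5 controls, Sox9null, E12.5 controls and Sox9cKO, and the adult beta share 11.1%, 12.9%, 19.6% and 15.6%.

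Replicate numbers showed no pairing of the samples: deviations of same-numbered controls and mutants correlated at -0.43, 0.64 and 0.44 at E11.5 and 0.17, 0.03 and -0.12 at E12.5. Differently numbered pairs ran from -0.72 to 0.74 at E11.5 and from -0.31 to 0.24 at E12.5. At E11.5 the sign followed the library sets, positive within a set and negative between sets. With the replicate block the globin calls stayed at 0, 0, 4 and 2 in the 4 comparisons, and Hbb-y with age in mutants had 0.01. Over all genes the calls ranged from 0 to 55 (7 as reported) at E11.5 and from 9 to 9582 (25) at E12.5 between mutants and controls, from 0 to 10 (4) for the difference of effects, and with age from 1379 to 6916 (2794) in controls and from 707 to 6364 (2539) in mutants. The cause of these changes was not tested. RPKM without known depth gives no counting error for any gene, Hbb-bh0 with its 129 exon bases included.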

Other observations

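In each of the 3 groups that held libraries both with and without Y-linked RNA, the library that had it was the lowest for Hba-a2, a pattern noticed after the values were seen and not tested by itself. Among the E11.5 controls this was replicate 1 (11.1 RPKM, against 18.4 and 15.1), with 81.7 summed RPKM of 4 Y-linked genes against at most 0.185 in the others. In Sox9null it was replicate 3 (13.9, against 17.2, 17.6 and 19.9), and in Sox9cKO replicate 3 (16.9, against 24.3 and 20.6). The pattern was shared in part by other globin genes: control 1 was also the lowest of its group for Hbb-b1 (14.9 RPKM, against 19.7 and 18.8) and Hbb-b2 (12.6, against 15.9 and 17.9), and Sox9cKO 3 for Hba-a1 (24.1, against 30.2 and 29.3) and Hbb-b1 (17.2, against 23.2 and 20.4). In Sox9null replicate 3 was not the lowest for these, and for Hba-a1 it was the highest (41.1). With sex as a term the SE of the Hba-a2 difference with age in controls went from 0.178 to 0.119. That change comes from the same values in which the pattern was noticed, so it is no separate evidence for it. Only 10.7% of the 50-base windows of Hba-a2 are its own, and how its reads were told from those of Hba-a1 is not recorded in the sources used here.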
